A study of Mus musculus with 12 samples.

Results

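The 27 genes described here encode enzymes of the mevalonate and sterol arms of cholesterol synthesis, together with regulators and targets of the transcription factor SREBP2. They were chosen by name for these functions, with earlier results of these data known. All 27 were found among the 23420 genes of the deposited count tables, 26 under the symbols used here and Msmo1 under its older symbol Sc4mol. All 27 passed the filter on low counts that left 13693 genes to test. The study asked what happens to gene expression in mouse liver when Gdown1, a protein that binds RNA polymerase II and is encoded by Polr2m, is removed, alone or together with p53. RNA of whole C57BL/6 liver was sequenced in 12 libraries, 2 for each of 6 groups, and every mouse carried floxed Gdown1 alleles on both chromosomes. KO livers had the Alb-Cre transgene, which the albumin promoter drives in hepatocytes, and FF livers had no Cre, both at 7 weeks of age. DKO livers had Alb-Cre on a p53-/- background and p53KO livers had the p53-/- background without Cre, both at 8 weeks. DKO TAM livers had the tamoxifen-dependent Alb-CreERT2 on the p53-/- background and p53KO TAM livers had the p53-/- background without Cre, both taken 24 h after tamoxifen, with no age given. In each of these comparisons the presence of Cre goes with the loss of Gdown1, so that the effect of one cannot be told apart from that of the other. The labels do not say that the 2 libraries of a group came from separate animals, and the p-values measure only the spread between these libraries.

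Cholesterol is built from acetyl-CoA through mevalonate and farnesyl diphosphate to squalene, which is closed to lanosterol and trimmed to cholesterol in the endoplasmic reticulum. When sterols in that membrane fall, SCAP escorts SREBP2 to the Golgi, where SREBP2 is cut and released to switch on most genes of the pathway; when sterols are plentiful, INSIG1 and INSIG2 hold SCAP back. The liver is a main site of this synthesis and supplies cholesterol for lipoproteins and bile acids.

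Polr2m was measured first, as a check of the labels. It stood at 64.7 and 59.4 CPM in KO livers, against 100.3 and 96.7 CPM in FF livers, and at 58.1 and 59.99 CPM in DKO livers, against 89.1 and 103 CPM in p53KO livers (CPM, the usual library-scaled counts, here with TMM factors; replicates in the order of their numbers). Both differences passed the test, at -0.67 ± 0.13 and -0.70 ± 0.13 on the log2 scale (SE, adjusted p = 0.0024 and 0.00024, edgeR's quasi-likelihood test with Benjamini-Hochberg adjustment, as for every adjusted p here). After 24 h of tamoxifen it stood at 65.9 and 54.6 CPM in DKO TAM livers, against 75.9 and 78.7 CPM in p53KO TAM livers, and that difference did not pass (adjusted p = 0.063). Trp53 stood at 17.1 and 22.5 CPM in KO livers, against 13.1 and 7.94 CPM in FF livers (0.93 ± 0.24, adjusted p = 0.013). Among the livers labelled p53-/-, it stood at 8.39 and 8.13 CPM in DKO livers, against 3.07 and 2.79 CPM in p53KO livers (1.48 ± 0.29, adjusted p = 0.00050), and at 8.96 and 10.01 CPM in DKO TAM livers, against 3.79 and 3.97 CPM in p53KO TAM livers (1.29 ± 0.28, adjusted p = 0.0039). The p53KO livers were below the FF livers (-1.81 ± 0.31, adjusted p = 0.0087), while DKO and DKO TAM livers lay within the FF range; the Trp53 counts cover the whole gene and do not show which part of the transcript they come from. Library totals ranged from 4939408 to 8776369 counts. Albumin was lower in all 3 comparisons, with log2 fold changes of -1.01 in KO, -2.04 in DKO and -2.09 in DKO TAM livers. Scaling by library totals alone instead of TMM moved the median of all genes tested to 0.28, 0.78 and 0.36 in these comparisons, while the median of the 27 genes relative to it stayed at -0.24, -1.31 and -0.56. Directions given here are on the TMM scale, on which the median of all genes was 0.02, 0.01 and 0.01. Xist RNA reached 11.01 CPM in KO replicate 1 and 6.46 CPM in DKO TAM replicate 1 and no more than 1.78 CPM in any other library.

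Promoter windows from 250 bases before to 50 bases after the annotated start were read from RefSeq (GRCm38.p6, the build of the counts) for the 22 of 27 genes that matched, 28 windows in all. Fdps, Fdft1, Sqle, Stard4 and Npc1 had no match. Windows of 5 members are printed, picked by the direction of their changes. Hmgcs1, Idi1, Nsdhl and Insig1 were lower in KO and DKO livers, and Insig2 was the 1 member that was higher in DKO livers. Their windows lie at chr13:119690101-119690400 (plus strand), chr13:8885356-8885655 (plus), chrX:72918271-72918570 (plus), chr5:28071162-28071461 (plus) and chr1:121332540-121332839 (minus, the first of 3 listed starts). Each runs 5′ to 3′ on the strand of its gene, and capitals mark CCAAT on either strand (the NF-Y box, read as ATTGG on the other strand) and, in Hmgcs1, TCACCCCAC, a match to the core of the sterol regulatory element.
Hmgcs1: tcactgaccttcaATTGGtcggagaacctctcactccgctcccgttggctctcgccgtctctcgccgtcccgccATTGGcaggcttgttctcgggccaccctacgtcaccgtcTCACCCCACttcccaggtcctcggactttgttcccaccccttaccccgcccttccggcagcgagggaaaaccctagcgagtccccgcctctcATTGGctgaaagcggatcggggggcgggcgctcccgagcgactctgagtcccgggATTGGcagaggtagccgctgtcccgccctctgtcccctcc
Idi1: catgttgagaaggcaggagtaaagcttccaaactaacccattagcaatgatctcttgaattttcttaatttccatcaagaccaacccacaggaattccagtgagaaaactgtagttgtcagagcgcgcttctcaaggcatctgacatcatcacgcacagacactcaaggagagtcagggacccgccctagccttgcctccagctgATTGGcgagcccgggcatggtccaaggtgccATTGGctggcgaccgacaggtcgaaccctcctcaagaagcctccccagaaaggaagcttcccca
Nsdhl: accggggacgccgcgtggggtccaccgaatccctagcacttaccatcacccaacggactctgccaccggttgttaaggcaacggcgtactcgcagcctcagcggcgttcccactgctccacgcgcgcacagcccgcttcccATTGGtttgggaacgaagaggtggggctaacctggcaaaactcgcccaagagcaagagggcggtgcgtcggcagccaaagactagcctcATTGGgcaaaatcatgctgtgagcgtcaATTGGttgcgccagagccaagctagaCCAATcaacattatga
Insig1: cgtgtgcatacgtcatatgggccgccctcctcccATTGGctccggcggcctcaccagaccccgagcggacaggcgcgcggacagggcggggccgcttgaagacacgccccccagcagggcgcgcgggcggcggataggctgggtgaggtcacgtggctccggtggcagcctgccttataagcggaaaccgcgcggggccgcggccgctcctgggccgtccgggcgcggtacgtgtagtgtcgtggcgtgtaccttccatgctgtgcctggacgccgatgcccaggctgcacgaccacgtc
Insig2: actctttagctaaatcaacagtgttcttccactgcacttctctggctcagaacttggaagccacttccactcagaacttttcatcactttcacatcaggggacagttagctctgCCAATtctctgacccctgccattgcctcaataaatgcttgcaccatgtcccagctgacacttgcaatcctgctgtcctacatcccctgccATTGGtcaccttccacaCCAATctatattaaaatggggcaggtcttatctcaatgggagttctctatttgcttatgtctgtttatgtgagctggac

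NF-Y is known as a partner of SREBP2 at sterol-regulated promoters. CCAAT was present in 20 of the 28 member windows (71.4%), against 37.4% of 32851 windows of all RefSeq genes, searched on both strands. Nsdhl held 4 copies and Hmgcs1 held 4, against 1 in Insig1 and 3 in the printed window of Insig2. The other listed starts of Insig2 held none. Idi1 held 2, Mvk held 5 and the windows of Scap held 0. The Sp1-type GC box GGGCGG was present in 23 of 28 windows (82.1%), against 35.7% of all windows, and the E-box CANNTG in 23 of 28 (82.1%), against 72.3%. The sterol regulatory core TCACNCCAC was found in 1 of 28 windows, that of Hmgcs1, 137 bases before its start, against 1.24% of all windows. The longer canonical form of the element, known as SRE-1, was found in 0 of 28 windows and in 0.0913% of all windows. These matches describe letters in the windows and are not sites of binding.

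In the FF livers the 27 genes spanned a wide range of levels per kilobase of exon. The highest was Sc5d, the sterol desaturase that makes the immediate precursor of the last step, at 459.1 ± 16.7 CPM per kb (SD, n = 2), followed by Msmo1 at 405 ± 93.6 and Hmgcs1 at 330 ± 82.6 CPM per kb; neither Sc5d and Msmo1 nor Msmo1 and Hmgcs1 differed beyond their spread. Lowest were Dhdds at 6.44 ± 0.238, Mvd at 6.30 ± 2.75 and Lbr at 4.85 ± 0.605 CPM per kb, with no neighbours in that order separated beyond their spread. In DKO livers Sc5d was still highest, at 123 ± 25.7 CPM per kb, and the next places were held by Ebp at 94.5 ± 17.4, Hmgcs1 at 78.1 ± 22.6, Insig2 at 73.0 ± 12.2 and Msmo1 at 72.9 ± 19.1 CPM per kb, with no neighbours among these 5 separated beyond their spread. Together the 27 genes took 0.438% and 0.416% of the counts in KO livers, against 0.506% and 0.559% in FF livers. They took 0.326% and 0.262% in DKO livers, against 0.479% and 0.511% in p53KO livers, and 0.264% and 0.304% in DKO TAM livers, against 0.447% and 0.320% in p53KO TAM livers. All libraries with Cre lay below those of their own comparison without it.

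The first comparison set KO against FF livers. Of the 27 genes, 7 were lower and 0 higher in KO livers at an adjusted p under 0.05; 7.88% of all genes tested were lower and 6.92% higher. The 7 were Hmgcs1, Idi1 and Fdps of the mevalonate arm, Nsdhl and Sc5d of the sterol arm, and the regulators Scap and Insig1. With scaling by library totals 3 were lower and 2 higher. The other 20 genes did not pass, and the median log2 fold change of all 27 was -0.21, against 0.02 for all genes. Of the 27, 13 were lower in both KO livers than in both FF livers, as were 27.3% of all genes tested. In whole liver, fewer cells of a type and less RNA per cell cannot be told apart.

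Within the mevalonate arm, Fdps, which makes farnesyl diphosphate, had 82.8 and 75.9 CPM in KO livers, against 229 and 237 CPM in FF livers, a log2 fold change of -1.55 ± 0.28 (adjusted p = 0.0054). Both KO livers lay far below both FF livers, which were close to each other. Hmgcs1, the enzyme that makes HMG-CoA, had 412 and 396 CPM in KO livers, against 891 and 1274 CPM in FF livers (-1.42 ± 0.33, adjusted p = 0.019). Idi1, the isomerase of isopentenyl diphosphate, had 70.6 and 63.4 CPM in KO livers, against 94.2 and 125 CPM in FF livers (-0.71 ± 0.21, adjusted p = 0.037). The groups did not overlap for either gene, and FF replicate 2 was the higher FF liver in both. The other 4 enzymes of the arm did not pass: Acat2, the thiolase of the first step, had a log2 fold change of 0.55 ± 0.29, and the kinases Mvk and Pmvk had 0.23 ± 0.23 and 0.36 ± 0.18. Mvd, the decarboxylase, had -0.59 ± 0.42, with FF livers at 15.4 and 8.12 CPM.

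Of the 12 genes from squalene to cholesterol, 2 were lower in KO livers. Nsdhl, which removes a carbon from the sterol ring, had 56.4 and 45.2 CPM in KO livers, against 81.1 and 81.3 CPM in FF livers (-0.68 ± 0.14, adjusted p = 0.0040). Sc5d had 574 and 658 CPM in KO livers, against 1006 and 1059 CPM in FF livers (-0.75 ± 0.16, adjusted p = 0.0055). The groups overlapped for neither gene. Msmo1, which acts just before Nsdhl, had 443 and 503 CPM in KO livers, against 618 and 859 CPM in FF livers, and did not pass (-0.64 ± 0.24, adjusted p = 0.10). Squalene synthase Fdft1, squalene epoxidase Sqle, the cyclase Lss and the demethylase Cyp51 had log2 fold changes between -0.21 (Cyp51) and 0.35 (Lss), and none of these passed.

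Among the regulators, Scap, the sterol-sensing escort of SREBP2, had 86.6 and 84.6 CPM in KO livers, against 134 and 125 CPM in FF livers (-0.60 ± 0.13, adjusted p = 0.0055). Insig1, which retains SCAP and is itself an SREBP2 target, had 127 and 186 CPM in KO livers, against 359 and 336 CPM in FF livers (-1.16 ± 0.31, adjusted p = 0.040). Both genes were lower in every KO liver than in every FF liver. Srebf2, which encodes SREBP2, had -0.41 ± 0.16 (adjusted p = 0.10) and Insig2 -0.20 ± 0.16 (adjusted p = 0.44). Leaving out 1 library lowered the count of 7 to 2 without KO replicate 2, 3 without KO replicate 1, 4 without FF replicate 2 and 6 without FF replicate 1. Insig1 lost its call whichever of the 4 was left out (adjusted p of 0.055 to 0.19), Hmgcs1 (0.10 to 0.12) and Idi1 (0.11 to 0.25) without either KO library or FF replicate 2, Fdps and Nsdhl without KO replicate 2 (0.055 and 0.057), and Sc5d without KO replicate 1 (0.060); Scap lost it in none of these.

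**Figure D1:**
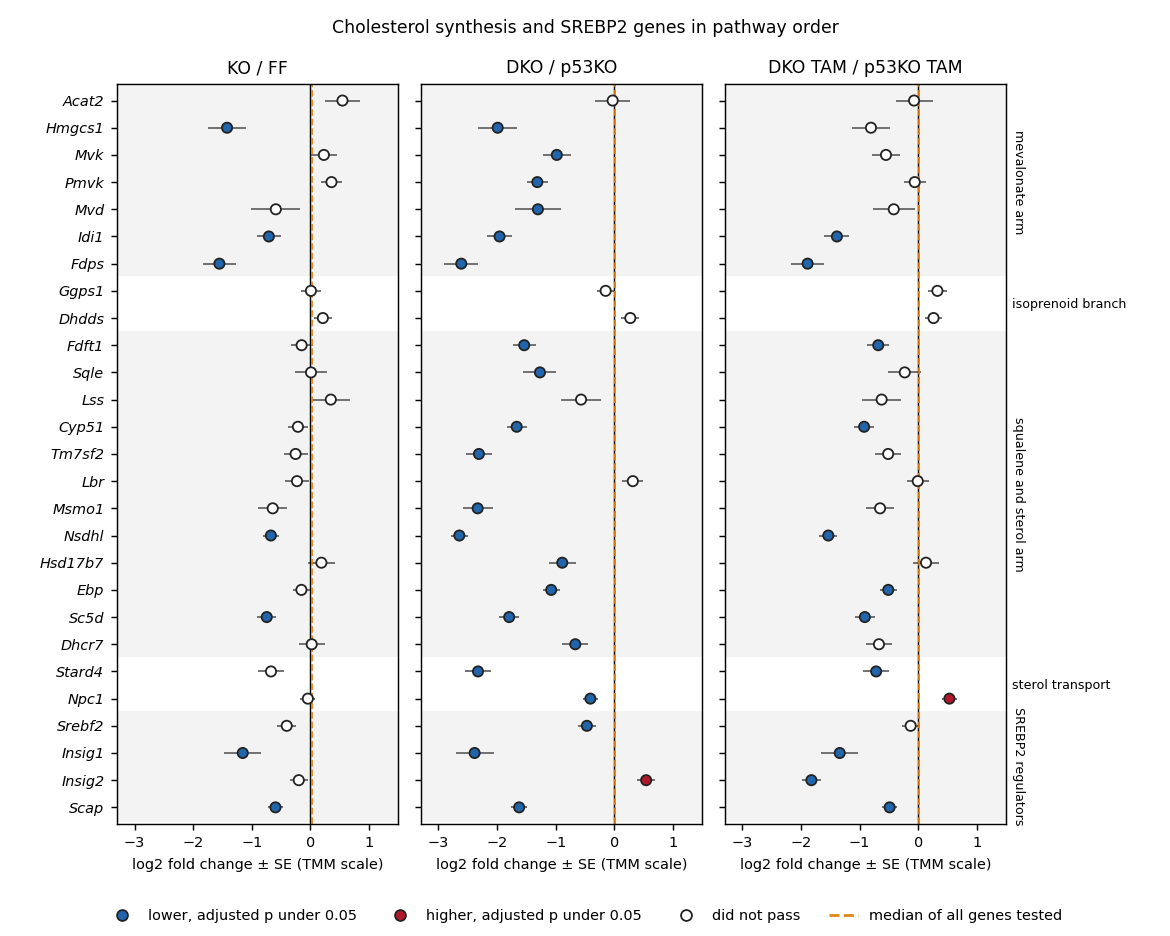
Log2 fold change with its standard error (x axis, TMM scale) for the 27 genes in pathway order down the y axis, one panel each for KO against FF, DKO against p53KO and DKO TAM against p53KO TAM livers, with filled points for an adjusted p under 0.05 (blue lower, red higher), open points for the rest and a dashed line at the median of all genes tested. In the DKO panel 21 genes lie to the left of 0 and passed. Insig2 lies to the right and passed, and Lbr and Dhdds are open points on that side. In the DKO TAM panel Insig2 is among the lowest, at -1.82.

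DKO against p53KO livers gave the broadest change. Of the 27 genes, 21 were lower and 1, Insig2, was higher in DKO livers, on a background where 25.7% of all genes tested were lower and 25.7% higher. The median log2 fold change of the 27 was -1.30, against 0.01 for all genes. Of the 27, 23 were lower in both DKO livers than in both p53KO livers, as were 37.3% of all genes tested. The 5 genes that did not pass were Acat2 (-0.03 ± 0.30), Ggps1 (-0.15 ± 0.15), Lss (-0.57 ± 0.34), Lbr (0.32 ± 0.18) and Dhdds (0.27 ± 0.15). Leaving out 1 library gave 16 to 20 lower, and scaling by library totals gave 14 lower and 5 higher.

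In the mevalonate arm 6 of 7 genes were lower. Fdps had 43.3 and 32.3 CPM in DKO livers, against 203 and 259 CPM in p53KO livers (-2.61 ± 0.29, 6.11-fold lower, adjusted p = 4.5e-05). Hmgcs1 had 309 and 204 CPM in DKO livers, against 1082 and 956 CPM in p53KO livers (-1.99 ± 0.33, adjusted p = 0.00084). Idi1 had 34.1 and 22.9 CPM in DKO livers, against 118 and 104 CPM in p53KO livers (-1.96 ± 0.21, adjusted p = 6.1e-06). Every DKO liver was below every p53KO liver for these 3 genes, and DKO replicate 3 was the lower DKO liver each time. Pmvk, the second kinase of the arm, had 19.5 and 18.1 CPM in DKO livers, against 47.3 and 46.1 CPM in p53KO livers (-1.31 ± 0.18, adjusted p = 1.4e-05). Mvk had -0.98 ± 0.24 (adjusted p = 0.0028) and Mvd -1.30 ± 0.39 (adjusted p = 0.014). The Mvd call was lost without DKO replicate 3, p53KO replicate 1 or p53KO replicate 2 (adjusted p of 0.064 to 0.093), and this gene had as few as 53 counts in DKO replicate 3.

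Of the 12 genes of the squalene and sterol arm, 10 were lower in DKO livers. Nsdhl had 17.3 and 14.2 CPM in DKO livers, against 105 and 91.8 CPM in p53KO livers (-2.64 ± 0.15, 6.25-fold lower, adjusted p = 9.6e-10). Msmo1, the partner that opens the same demethylation, had 158 and 108 CPM in DKO livers, against 629 and 709.8 CPM in p53KO livers (-2.33 ± 0.26, adjusted p = 1.4e-05). Hsd17b7, the reductase that completes it, had 73.8 and 63.5 CPM in DKO livers, against 114 and 140.5 CPM in p53KO livers (-0.89 ± 0.23, adjusted p = 0.0065). All 3 genes of this demethylation were thus lower, with no overlap between the groups, and the Hsd17b7 call was lost without DKO replicate 3 (adjusted p = 0.056) or p53KO replicate 2 (0.062).

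Tm7sf2 and Lbr encode a pair of enzymes for one step, the reduction of the sterol double bond left by Cyp51. Tm7sf2 had 15.3 and 10.4 CPM in DKO livers, against 57.2 and 70.4 CPM in p53KO livers (-2.31 ± 0.22, adjusted p = 1.0e-06). Lbr, which is also an anchor of chromatin at the nuclear envelope, had 27.9 and 27.5 CPM in DKO livers, against 24.8 and 19.5 CPM in p53KO livers (0.32 ± 0.18, adjusted p = 0.16). The first of the pair was separated widely between the groups, and the second lay slightly higher in both DKO livers without passing the test. Cyp51 had 195 and 152 CPM in DKO livers, against 546 and 554.7 CPM in p53KO livers (-1.67 ± 0.17, adjusted p = 7.3e-07). Sc5d had 317 and 235 CPM in DKO livers, against 908 and 1005 CPM in p53KO livers (-1.79 ± 0.17, adjusted p = 2.4e-07). For both, every DKO liver was below every p53KO liver. Fdft1 (-1.54 ± 0.19), Sqle (-1.27 ± 0.28), the isomerase Ebp (-1.08 ± 0.14) and the final reductase Dhcr7 (-0.67 ± 0.22) were also lower, with adjusted p of 1.2e-05, 0.0043, 1.1e-05 and 0.026. The Dhcr7 call was lost without any 1 of the 4 libraries (adjusted p of 0.077 to 0.14). Of the exonic length of Fdft1, 774 of 2863 bases (27.04%) are shared with Ctsb on the opposite strand, and reads there cannot be assigned to one of them where counting did not use strand; no strand option is given in the 4 tables that name a program, and none is stated for the other 8. Overlaps of Lss (6.06%), Npc1 (3.15%) and Tm7sf2 (0.609%) with other genes were smaller.

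Both genes of sterol transport were lower in DKO livers. Stard4, a carrier of cholesterol between membranes and an SREBP2 target, had 46.97 and 26.4 CPM in DKO livers, against 162 and 206 CPM in p53KO livers (-2.33 ± 0.22, adjusted p = 3.4e-06). Npc1, which passes cholesterol out of lysosomes, had 157 and 144 CPM in DKO livers, against 188 and 212 CPM in p53KO livers (-0.41 ± 0.13, adjusted p = 0.014), a small difference whose call was lost without DKO replicate 3 (adjusted p = 0.10) or p53KO replicate 2 (0.088). The regulators split. Scap had 41.2 and 41.9 CPM in DKO livers, against 119.7 and 137 CPM in p53KO livers (-1.62 ± 0.13, adjusted p = 5.6e-08), and Insig1 had 84.4 and 57.00 CPM in DKO livers, against 329 and 409 CPM in p53KO livers (-2.38 ± 0.32, adjusted p = 0.00027). Srebf2 itself had 56.3 and 52.9 CPM in DKO livers, against 71.7 and 79.6 CPM in p53KO livers (-0.47 ± 0.15, adjusted p = 0.017), a call lost without DKO replicate 3 (adjusted p = 0.094) or p53KO replicate 2 (0.088). Scap and Insig1 were thus far lower in DKO livers, and Srebf2 by a smaller margin without overlap. With scaling by library totals, Ggps1, Dhcr7, Srebf2 and Npc1 turned to positive values, among members with a call on either scale.

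**Figure D2:**
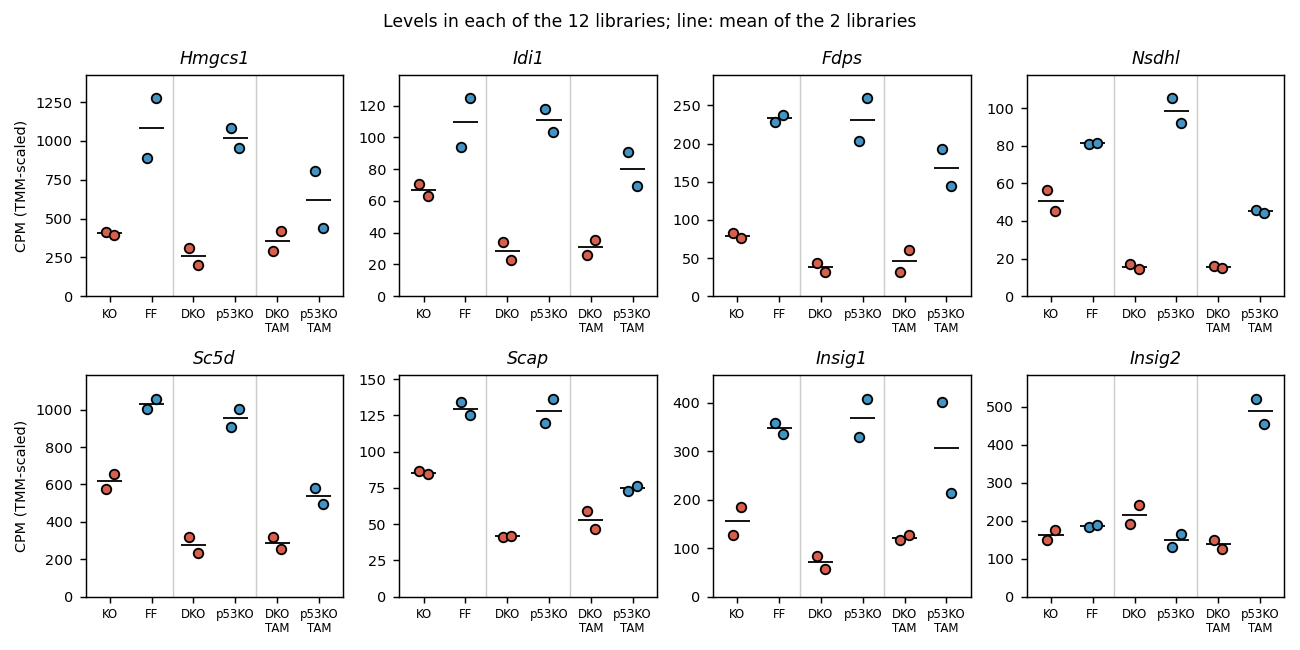
TMM-scaled CPM (y axes, from 0) of Hmgcs1, Idi1, Fdps, Nsdhl, Sc5d, Scap, Insig1 and Insig2 in each of the 12 libraries, by group along the x axis, with a line at the mean of the 2 libraries. Red points are groups with Cre and blue points those without; Insig2 stands out in p53KO TAM livers, at 522 and 456 CPM.

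The 24 h comparison set DKO TAM against p53KO TAM livers. Of the 27 genes, 11 were lower and 1, Npc1, was higher in DKO TAM livers; 10.1% of all genes tested were lower and 8.61% higher. The median log2 fold change of the 27 was -0.55, against 0.01 for all genes. Of the 27, 15 were lower in both DKO TAM livers than in both p53KO TAM livers, as were 29.3% of all genes tested. The 11 were Idi1 and Fdps of the mevalonate arm, Fdft1, Cyp51, Nsdhl, Ebp and Sc5d of the sterol arm, Stard4, and the regulators Scap, Insig1 and Insig2. The count fell to 6 without p53KO TAM replicate 1 and to 7 without either DKO TAM library, and was 13 without p53KO TAM replicate 2; scaling by library totals gave 7 lower and 3 higher.

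Fdps had 31.6 and 60.1 CPM in DKO TAM livers, against 192 and 145 CPM in p53KO TAM livers (-1.89 ± 0.28, 3.70-fold lower, adjusted p = 0.0018). Idi1 had 26.2 and 35.3 CPM in DKO TAM livers, against 90.8 and 69.3 CPM in p53KO TAM livers (-1.39 ± 0.21, adjusted p = 0.00074). Hmgcs1 had 291 and 419.8 CPM in DKO TAM livers, against 805 and 437 CPM in p53KO TAM livers, and did not pass (-0.81 ± 0.32, adjusted p = 0.12). The 2 p53KO TAM livers differed widely in Hmgcs1, and the lower of them was close to the higher DKO TAM liver. Nsdhl had 16.1 and 14.9 CPM in DKO TAM livers, against 45.6 and 44.5 CPM in p53KO TAM livers (-1.53 ± 0.15, adjusted p = 4.7e-06). Sc5d had 317 and 256 CPM in DKO TAM livers, against 582 and 496 CPM in p53KO TAM livers (-0.91 ± 0.17, adjusted p = 0.0012). Neither sterol gene overlapped between the groups, and Nsdhl had little spread inside them. Cyp51 had -0.92 ± 0.17 (adjusted p = 0.0014), Fdft1 -0.68 ± 0.19 (0.022), Ebp -0.51 ± 0.14 (0.019) and Stard4 -0.72 ± 0.22 (0.038). The Stard4 call was lost without any 1 of the 4 libraries (adjusted p of 0.064 to 0.21), the Ebp call without either DKO TAM library or p53KO TAM replicate 1 (0.072 to 0.15), and the Fdft1 call without DKO TAM replicate 1 (0.14) or p53KO TAM replicate 1 (0.18). Pmvk, lower in DKO livers, had 19.6 and 25.9 CPM in DKO TAM livers, against 26.95 and 19.8 CPM in p53KO TAM livers (-0.06 ± 0.19, adjusted p = 0.86), and its groups overlapped.

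Among the regulators at 24 h, Insig1 had 116 and 127 CPM in DKO TAM livers, against 401 and 213 CPM in p53KO TAM livers (-1.34 ± 0.31, adjusted p = 0.019). Scap had 59.4 and 46.7 CPM in DKO TAM livers, against 72.6 and 76.6 CPM in p53KO TAM livers (-0.49 ± 0.13, adjusted p = 0.017). The groups overlapped for neither gene, but both calls depended on single libraries: Insig1 lost its call without either DKO TAM library or p53KO TAM replicate 1 (adjusted p of 0.057 to 0.11), and Scap without DKO TAM replicate 2 or either p53KO TAM library (0.067 to 0.19). Srebf2 had -0.13 ± 0.15 and did not pass (adjusted p = 0.60).

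Insig2 was the member whose effect differed most between the DKO and DKO TAM comparisons. It had 190.2 and 241 CPM in DKO livers, against 131 and 165 CPM in p53KO livers (0.54 ± 0.16, adjusted p = 0.0079). At 24 h it had 150.00 and 126 CPM in DKO TAM livers, against 522 and 456 CPM in p53KO TAM livers (-1.82 ± 0.16, 3.54-fold lower, adjusted p = 1.1e-06). It was thus higher in DKO livers and lower in DKO TAM livers, and the p53KO TAM livers stood above all 10 other libraries. The difference between these effects, DKO minus DKO TAM, was 2.37 ± 0.22 on the log2 scale (adjusted p = 3.6e-06). The rise in DKO livers was lost without DKO replicate 3 (0.36, adjusted p = 0.13) or p53KO replicate 1 (0.38, adjusted p = 0.11), whereas the decrease in DKO TAM livers passed without each of the 4 libraries. Like Insig1 it holds SCAP in the endoplasmic reticulum, but in mouse liver its main transcript is known to be repressed by insulin rather than raised by SREBP2.

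Npc1 was the other member that passed in opposite directions in the DKO and DKO TAM comparisons. It had 140.00 and 157 CPM in DKO TAM livers, against 112 and 93.3 CPM in p53KO TAM livers (0.53 ± 0.13, adjusted p = 0.0098), and the DKO minus DKO TAM difference of effects was -0.94 ± 0.18 (adjusted p = 0.0013). The higher level in DKO TAM livers did not pass without DKO TAM replicate 2 (adjusted p = 0.081) or p53KO TAM replicate 2 (0.13). The level in p53KO TAM livers was the lowest of the 6 groups.

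Members lower in all 3 comparisons were Idi1, Fdps, Nsdhl, Sc5d, Insig1 and Scap, 6 of 27 against 3.70% of all genes tested (507 of 13693). A further 5 were lower in 2 comparisons, 11 in 1 and 5 in none. With library totals as the scale the 6 became Fdps and Sc5d only, and at an adjusted p under 0.01 they were Fdps, Nsdhl and Sc5d. Of the 6, Nsdhl had the largest spread of effects: -0.68 in KO, -2.64 in DKO and -1.53 in DKO TAM livers, on the log2 scale.

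The effect in DKO livers was then tested against that in KO livers, as a difference of log2 fold changes. It was more negative in 14 members and more positive in 1, Insig2, where 12.9% and 9.75% of all genes were so, and the members' median difference was -1.05; with library totals these counts were 7 and 2. Tm7sf2 (-2.06 ± 0.30, adjusted p = 0.00036), Nsdhl (-1.97 ± 0.20, 1.6e-05), Msmo1 (-1.69 ± 0.35, 0.0051) and Pmvk (-1.67 ± 0.25, 0.00026) had the most negative differences. Fdps (-1.06 ± 0.39, 0.081), Hmgcs1 (-0.57 ± 0.45, 0.42) and Insig1 (-1.23 ± 0.44, 0.078), all lower in KO livers, did not pass this test. KO and DKO livers also differ in age by 1 week and perhaps in experiment, which cannot be told apart from the p53 genotype here. Against DKO TAM livers, the effect in DKO livers was more negative in 12 members and more positive in 1, where 14.2% and 13.4% of all genes were so. Among the 12, Nsdhl, Pmvk, Npc1, Stard4, Sc5d, Tm7sf2 and Scap were also lower in p53KO TAM than in p53KO livers. Nsdhl averaged 15.8 CPM in DKO and 15.5 CPM in DKO TAM livers, against 98.5 CPM in p53KO and 45.0 CPM in p53KO TAM livers. Tm7sf2 averaged 12.8 CPM in DKO and 25.5 CPM in DKO TAM livers, against 63.8 CPM in p53KO and 36.4 CPM in p53KO TAM livers. A more negative effect thus need not mean a lower level in DKO than in DKO TAM livers. DKO and DKO TAM livers differ in Cre transgene, in tamoxifen, in the time since deletion could begin and perhaps in age and experiment. These effects cannot be told apart. Tm7sf2 (-1.80 ± 0.31), Msmo1 (-1.68 ± 0.35) and Stard4 (-1.61 ± 0.31) led, while Idi1 (-0.57 ± 0.30), Fdps (-0.72 ± 0.39) and Insig1 (-1.04 ± 0.44) did not pass. This count was 7 without DKO replicate 3 and 8 without DKO TAM replicate 2, p53KO replicate 1, p53KO replicate 2 or p53KO TAM replicate 2, and with library totals it was 7 lower and 2 higher.

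The livers without Cre were compared too. Between p53KO and FF livers, 0 of the 27 genes passed in edgeR, DESeq2 or limma-voom, where 0.270% of all genes were lower and 0.592% higher; at an unadjusted p under 0.05 there were 2, Stard4 (0.53 ± 0.21) and Insig2 (-0.33 ± 0.16), where 5.88% of all genes were lower and 5.86% higher. The members' median was 0.02. The p53KO and FF livers differ in p53 genotype, in age (8 and 7 weeks) and perhaps in experiment, effects that cannot be told apart. Between p53KO TAM and p53KO livers, 7 were lower and 1, Insig2, was higher, where 8.22% and 7.55% of all genes were so. The p53KO TAM livers, with no age given, differ from these in tamoxifen and perhaps in age and experiment. These effects cannot be told apart. Insig2 had 522 and 456 CPM in p53KO TAM livers, against 131 and 165 CPM in p53KO livers (1.72 ± 0.16, adjusted p = 2.5e-06). Nsdhl had 45.6 and 44.5 CPM in p53KO TAM livers, against 105 and 91.8 CPM in p53KO livers (-1.13 ± 0.14, adjusted p = 6.3e-05). Pmvk (-0.98 ± 0.19), Npc1 (-0.96 ± 0.13), Stard4 (-0.86 ± 0.22), Sc5d (-0.83 ± 0.16), Tm7sf2 (-0.80 ± 0.21) and Scap (-0.78 ± 0.13) were the other 6 that were lower. The p53KO livers serve here and in the DKO comparison, so the values of both are not independent.

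Libraries of a group were not equally alike in these genes. Of the 27, 23 were higher in DKO replicate 2 than in DKO replicate 3, with a median log2 ratio of 0.38, against a median of 0.00 over all genes (ratios of CPM plus 0.5). In p53KO TAM livers 25 were higher in replicate 1 than in replicate 2, with a median of 0.31, against 0.01 over all genes. In DKO TAM livers 7 were higher in replicate 1, with a median of -0.27. In the other 3 groups the medians lay between -0.15 (p53KO, with 7 higher in replicate 1) and 0.05 (KO). In FF livers 9 were higher in replicate 1, with a median of -0.05. Most members thus differed in one direction between the 2 libraries of DKO, p53KO TAM, DKO TAM and, by smaller medians, p53KO and FF livers. The counts of members called are therefore not counts of independent genes.

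**Figure D3:**
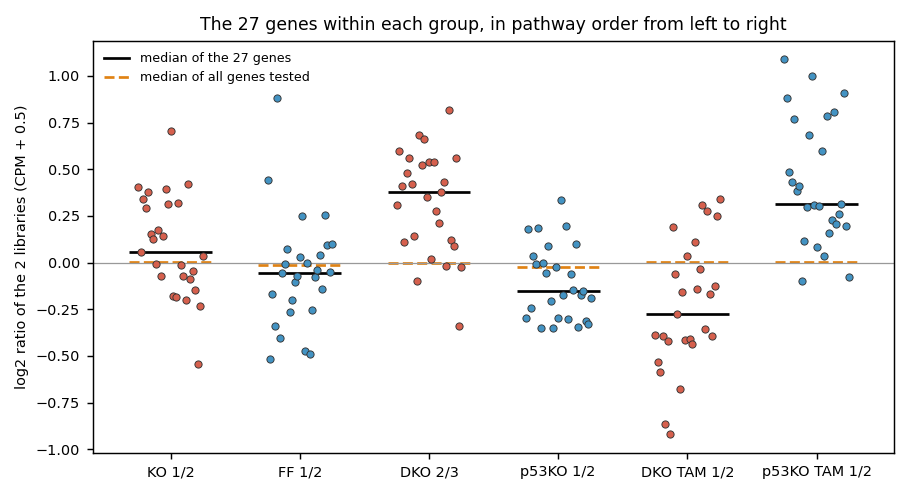
Log2 ratio of the 2 libraries of each group (y axis, CPM plus 0.5) for the 27 genes, one point a gene in pathway order within each of the 6 groups on the x axis. Most points lie above 0 in DKO (23 of 27) and p53KO TAM livers (25 of 27), and 7 of 27 do so in DKO TAM and in p53KO livers.

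Genes of neighbouring pathways were read from lists chosen by function. Acss2 and Acly, both SREBP targets outside the 27, make the cytosolic acetyl-CoA with which the pathway starts. Acss2, which makes it from acetate, had 58.6 and 43.6 CPM in KO livers, against 133 and 139 CPM in FF livers (-1.41 ± 0.21, adjusted p = 0.00048), and 20.01 and 14.98 CPM in DKO livers, against 124 and 139 CPM in p53KO livers (-2.91 ± 0.22, adjusted p = 1.2e-07). At 24 h it had 22.3 and 15.8 CPM in DKO TAM livers, against 60.3 and 41.3 CPM in p53KO TAM livers (-1.42 ± 0.22, adjusted p = 0.00061). Every liver with Cre lay below both livers without it in each of these comparisons. Acly, which makes it from citrate, had 234 and 196 CPM in KO livers, against 337 and 298 CPM in FF livers (-0.56 ± 0.14, adjusted p = 0.012), and 100.7 and 97.9 CPM in DKO livers, against 298 and 273 CPM in p53KO livers (-1.52 ± 0.14, adjusted p = 2.2e-07). At 24 h it had 89.1 and 84.6 CPM in DKO TAM livers, against 258 and 206 CPM in p53KO TAM livers (-1.42 ± 0.14, adjusted p = 4.6e-06), again with no overlap.

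Counts of each list below are at an adjusted p under 0.05, which 7.88% of all genes met as lower and 6.92% as higher in KO livers, 25.7% and 25.7% in DKO livers, and 10.1% and 8.61% in DKO TAM livers. Of 13 genes of SREBP1 and fatty acid synthesis, 5 were lower in KO, 9 in DKO and 8 in DKO TAM livers and 0 were higher in any, with medians of -0.25, -1.30 and -0.94. Acacb, an acetyl-CoA carboxylase, was lower with log2 fold changes of -2.72, -2.74 and -1.78 in KO, DKO and DKO TAM livers, and Thrsp, a lipogenic regulator, with -2.09, -4.51 and -3.20. The 12 genes that use isoprenoids showed 0 lower and 1 higher in KO, 3 lower and 1 higher in DKO, and 0 lower and 1 higher in DKO TAM livers. The 2 members of this branch, Ggps1, which makes geranylgeranyl diphosphate, and Dhdds, which starts dolichol synthesis, passed in none of the 3. Of 13 genes of SREBP cleavage and sterol-regulated degradation, 1, 6 and 2 were lower and 0 higher in KO, DKO and DKO TAM livers; Erlin1, which acts in sterol-regulated degradation at the endoplasmic reticulum, was lower in all 3 (-0.45, -0.96 and -0.48). Of 14 genes of cholesterol efflux and LXR targets, 3 were higher and 2 lower in KO livers, 4 higher and 6 lower in DKO livers, and 2 higher and 1 lower in DKO TAM livers. Abcg8, a canalicular sterol exporter, was lower in DKO (-2.66 ± 0.29, adjusted p = 3.2e-05) and DKO TAM livers (-1.92 ± 0.30, 0.0021), and Soat1, which esterifies cholesterol, was higher in DKO livers (1.71 ± 0.16, 1.9e-07).

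**Figure D4:**
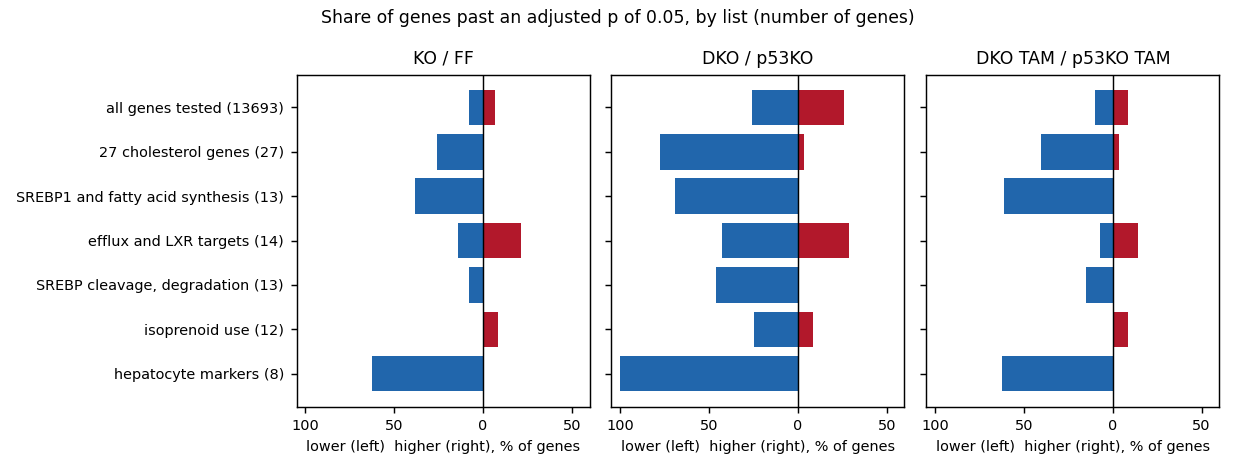
Percent of genes lower (bars to the left of 0) and higher (bars to the right) at an adjusted p under 0.05, by gene list down the y axis with its number of genes, for KO against FF, DKO against p53KO and DKO TAM against p53KO TAM livers. All genes tested are at the top; the 27 genes and the hepatocyte markers both extend to the left in every panel.

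Hepatocyte markers moved in the same direction as the 27 genes. Of 8, 5 were lower in KO, 8 in DKO and 5 in DKO TAM livers, with medians of -0.55, -1.79 and -0.69 on the log2 scale. Their summed level was 61370 to 71099 CPM in KO livers, against 109956 to 111711 CPM in FF livers. It was 35839 to 38130 CPM in DKO livers, against 123987 to 128244 CPM in p53KO livers, and 45743 to 49772 CPM in DKO TAM livers, against 115571 to 119412 CPM in p53KO TAM livers. Albumin alone averaged 62021.5 CPM in FF and 30711.7 CPM in KO livers, and 72668.2 CPM in p53KO TAM and 17060.2 CPM in DKO TAM livers. It made up most of the sum in livers without Cre, so the sums follow albumin more than the other markers. No hepatocyte marker was at 0 counts in any group. The median of the 27 genes was thus less negative than that of the hepatocyte markers in all 3 comparisons. The lowest member lay below the lowest marker in KO (-1.55 against -1.17) and DKO livers (-2.64 against -2.23). In DKO TAM livers the lowest member lay above the lowest marker (-1.89 against -2.09). The part of the hepatocyte level in the members' results was not tested.

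Most markers of stellate cells, macrophages and cholangiocytes were higher in DKO livers, where 25.7% of all genes were, and those of endothelial cells were divided. Of 10 stellate and fibroblast markers, 10 were higher and 0 lower, at a summed 1467 to 1532 CPM in DKO livers, against 381 to 398 CPM in p53KO livers. Of 10 macrophage markers, 9 were higher and 0 lower, at a summed 1288 to 1342 CPM in DKO livers, against 566 to 601 CPM in p53KO livers. Cholangiocyte markers, 8 tested of 10, showed 6 higher and 0 lower, at a summed 280.3 to 311 CPM in DKO livers, against 68.4 to 70.2 CPM in p53KO livers. Endothelial markers gave 2 higher and 3 lower of 10, at a summed 546 to 644 CPM in DKO livers, against 718 to 741 CPM in p53KO livers. Proliferation markers gave 10 higher of 10, at a summed 1215 CPM in both DKO livers, against 67.1 to 76.8 CPM in p53KO livers.

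In KO livers 1 stellate, 2 macrophage, 0 cholangiocyte, 1 endothelial and 4 proliferation markers were higher and 0 of any list were lower. Stellate markers summed to 730 to 807 CPM in KO livers, against 543 to 665 CPM in FF livers, and macrophage markers to 747 to 839 CPM in KO livers, against 623 to 628 CPM in FF livers. Proliferation markers summed to 156 to 158 CPM in KO livers, against 55.4 to 80.7 CPM in FF livers, while the cholangiocyte and endothelial sums overlapped, at 123 to 173 and 649 to 759 CPM in KO livers, against 94.99 to 167 and 724 to 810.3 CPM in FF livers. In DKO TAM livers 7 proliferation, 1 macrophage and 1 cholangiocyte marker were higher, and 6 endothelial and 1 stellate marker were lower. Endothelial markers summed to 497 to 529 CPM in DKO TAM livers, against 789 to 827 CPM in p53KO TAM livers, and proliferation markers to 131 to 173 CPM in DKO TAM livers, against 67.2 to 69.1 CPM in p53KO TAM livers. Macrophage sums were 926 to 931 CPM in DKO TAM livers, against 749 to 826 CPM in p53KO TAM livers, and cholangiocyte sums 74.4 to 93.4 CPM in DKO TAM livers, against 52.2 to 66.6 CPM in p53KO TAM livers. Stellate sums overlapped, at 449 to 664 CPM in DKO TAM livers, against 518 to 569.6 CPM in p53KO TAM livers. The part of these cell types in the results of the 27 genes was not tested.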

How the data were processed

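Total RNA of whole mouse liver was made into 12 strand-marking libraries (SMARTer kit). The authors deposited raw counts per gene. Per the submitters' processing notes, CASAVA 1.82, HISAT2 and featureCounts were used with mm10 (GRCm38); headers of 4 tables name featureCounts 1.6.4 with no strand option, and 8 name no program. Groups were read from the titles and descriptions. The 27 genes, the other lists and the tests were chosen with earlier results of these data known. Every member may be named, and up to 4 genes of each other list with the smallest p in a comparison. Some genes of these lists are not reported here, and the list of further SREBP2 targets gets no count.

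Counts were tested with edgeR 4.0.16 (R 4.3.3, TMM scaling, filterByExpr with a minimum count of 10, robust quasi-likelihood F test) in 1 model of 6 group means over all 12 libraries, with 6 residual degrees of freedom, and adjusted by Benjamini-Hochberg over 13693 genes at 0.05. Standard errors are the log2 fold change divided by the root of F. Library totals of 4939408 to 8776369 counts make 3 counts equal to 0.254 to 0.678 CPM. Alternatives were DESeq2 1.42.0, limma-voom (limma 3.58.1), other scalings, filters and thresholds, only the libraries compared, a replicate block and leaving out each library. The procedure was tested on simulated data. No library was left out.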

Additional observations from a re-analysis of the deposited data

Results flagged for a closer look

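The difference between livers with and without Cre differed between DKO and KO livers for 15 members, by a test of the difference itself (edgeR's quasi-likelihood test, adjusted p under 0.05). The log2 differences, DKO minus KO, were -1.21 for Mvk, -1.67 for Pmvk and -1.25 for Idi1 in the mevalonate arm. In the squalene and sterol arm they were -1.39 for Fdft1, -1.28 for Sqle, -1.45 for Cyp51, -2.06 for Tm7sf2, -1.69 for Msmo1, -1.97 for Nsdhl, -1.08 for Hsd17b7, -0.92 for Ebp and -1.05 for Sc5d. They were -1.65 for Stard4, -1.03 for Scap and 0.74 for Insig2. With single libraries left out, Mvk (adjusted p up to 0.074), Sqle (0.14), Hsd17b7 (0.12) and Insig2 (0.13) no longer passed.

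Between DKO and DKO TAM livers the effect differed in 13 members. The log2 differences, DKO minus DKO TAM, were -1.25 for Pmvk, -0.86 for Fdft1, -0.74 for Cyp51, -1.80 for Tm7sf2, -1.68 for Msmo1, -1.11 for Nsdhl, -1.02 for Hsd17b7, -0.57 for Ebp and -0.88 for Sc5d. They were -1.61 for Stard4, -0.94 for Npc1, -1.14 for Scap and 2.37 for Insig2. Of these, Nsdhl, Pmvk, Npc1, Stard4, Sc5d, Tm7sf2 and Scap were also lower in p53KO TAM than in p53KO livers, and Insig2 was higher. With single libraries left out, Cyp51 (adjusted p up to 0.13), Fdft1 (0.11), Hsd17b7 (0.12), Ebp (0.21) and Sc5d (0.061) no longer passed. In these comparisons the DKO and p53KO livers are shared, so both sets of differences rest in part on the same libraries.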

How the results depend on the processing

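Over 2241 pairs of a gene and an alternative, 1958 kept direction and side of the threshold, 163 lost and 41 gained a call, 4 reversed, and 75 changed sign without a call in either. With library totals alone, members lower were 3 in KO, 7 in DKO TAM, 7 for DKO minus KO and 7 for DKO minus DKO TAM. Members higher were 2, 3, 2 and 2 in these and 5 in DKO, and the median of the 27 genes in KO against FF was 0.0449. With that scale, Ggps1 (0.62), Dhcr7 (0.10), Srebf2 (0.30) and Npc1 (0.36) turned positive in DKO livers, among members with a call on either scale. The median of all genes there was 0.78. Upper quartile scaling gave 3 higher in DKO and 2 higher in p53KO TAM against p53KO livers. At an adjusted p under 0.01, 4 were lower in KO and 6 in DKO TAM livers and 0 were higher for DKO minus KO. Without each library in turn, members lower ranged from 2 to 6 in KO, 16 to 20 in DKO, 6 to 13 in DKO TAM, 11 to 13 for DKO minus KO, 7 to 14 for DKO minus DKO TAM, 0 to 0 in p53KO against FF and 5 to 8 in p53KO TAM against p53KO livers; members higher ranged from 0 to 1 in DKO, DKO TAM and DKO minus KO and stayed at 0 in KO and at 1 in the other 2 with a call. Libraries with the same number in the descriptions did not deviate together (correlations of 0.11, -0.07 and -0.01), so the numbers were not used as pairs. The descriptions number DKO replicates 2 and 3 as 1 and 2. In KO, DKO and DKO TAM livers, a fit with a replicate block by these numbers gave 6, 20 and 9 members lower. It gave 0, 1 and 1 higher there. For the 2 differences it gave 13 and 11 lower and 1 and 1 higher. In p53KO TAM against p53KO livers it gave 5 lower and 1 higher. With 2 libraries a group, calls near the threshold rest on single libraries, and low-count members such as Mvd (34 counts in KO replicate 2) are measured least precisely.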
